A study of Homo sapiens with 2 samples.

Results

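10 genes of prostaglandin signalling and metabolism, 5 receptors (PTGFR, PTGER1, PTGER2, PTGER3, PTGER4) and 5 enzymes (PTGS1, PTGS2, PTGES, PTGDS, HPGD), were taken by symbol from the 25343 gene rows of a deposited RNA-seq table, and all 10 were found. The study compared 2 lines of C4-2B, a human prostate cancer subline descended from LNCaP through C4-2 that grows under castration. The C4-2B Con library came from enzalutamide-sensitive cells kept with DMSO, and the C4-2B ENZR library from enzalutamide-resistant cells kept in 20 µM enzalutamide, an antiandrogen drug. Both lines grew in serum-containing RPMI medium, and the titles of both samples carry the ending shC without further explanation. Each group was 1 library (n = 1), so no difference below has a replicate check, no test of the conditions was possible and no p-value is given. The agent was present in the ENZR culture alone, so stable resistance and the presence of the drug cannot be told apart. The gene set was chosen by function with the Con and ENZR levels of these libraries in view, above all that of PTGFR, so the differences that follow are a description.

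Prostaglandins are short-lived lipid signals made from arachidonic acid. The cyclooxygenases, COX-1 (PTGS1) and COX-2 (PTGS2), make the common precursor PGH2, and terminal synthases turn it into PGE2, PGD2, PGF2-alpha, prostacyclin or thromboxane. The dehydrogenase HPGD begins the inactivation of PGE2 and PGF2-alpha. Each product acts on cells nearby through its own G-protein-coupled receptors: PGF2-alpha through FP (PTGFR), PGE2 through EP1 to EP4 (PTGER1 to PTGER4). Prostaglandins were named for the prostate because they were first found in semen, although most of those in semen come from the seminal vesicles.

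Values are CPM after the authors' TMM scaling, that is, a gene's reads for every 1000000 reads of a library size that the scaling adjusts, so the columns summed to 1030020 CPM in Con and 949450 CPM in ENZR. Whole reads could be recovered from them, 21024484 in Con and 23479051 in ENZR, so that 1 read was worth 0.0490 CPM and 0.0404 CPM. A gene was called measured when the mean of its values over both libraries was 1 CPM or more, which 13803 genes reached, 54.5% of all rows. Log2 ratios are ENZR over Con after adding 1 CPM to each value, folds are plain CPM ratios, and the interval given with a fold is the exact 95% (Clopper-Pearson) interval from the read counts. It covers counting error only and not the spread between cultures. All 11 markers of the prostate luminal lineage read here had reads in both libraries, 8 with a log2 ratio below 0. They summed to 4932 CPM in Con against 3226 CPM in ENZR, and without KLK3, which was at 1428 CPM in Con and 3.72 in ENZR, to 3504 CPM against 3222 CPM. KLK2 was the other luminal marker past 2-fold, at 72.2 CPM and 17.4 CPM. Of 7 leukocyte and blood markers, 3 had 0 reads in Con and 4 in ENZR, with CD3E, HBB and the mast cell gene TPSAB1 in both. The list nevertheless summed to 19.2 CPM and 15.2 CPM. Most of each sum came from CD68, 15.7 CPM for Con against 9.87 CPM for ENZR. LYZ differed the other way, 2.94 CPM against 5.10 CPM. The 8 stromal and endothelial markers summed to 31.3 CPM and 52.0 CPM, and without COL1A1, a collagen gene at 18.1 CPM and 44.4 CPM, to 13.2 CPM and 7.60 CPM. LUM had 0 reads and 32 reads, VWF was at 8.92 CPM and 2.91 CPM, and the endothelial gene CDH5 had 0 reads in both. The part of these marker differences in the values below was not tested.

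The promoters of PTGFR and PTGER4, the genes with the largest differences among the 10, and those of PTGES and PTGS2, an evenly expressed and an almost silent enzyme gene, are shown for comparison. Each line gives the 250 bases before the annotated transcription start, 5′ to 3′ on the gene's strand, from RefSeq (GRCh38.p14), at chr1:78490724-78490973 (plus strand) for PTGFR, chr5:40679665-40679914 (plus) for PTGER4, chr9:129753043-129753292 (minus) for PTGES and chr1:186680424-186680673 (minus) for PTGS2. Capitals mark 4 motifs on either strand. These are the GC box, with the letters GGGCGG, the box named after its letters CCAAT, the TATA box, searched as TATAAA, and the short core of the cyclic AMP response element, TGACG.
PTGFR: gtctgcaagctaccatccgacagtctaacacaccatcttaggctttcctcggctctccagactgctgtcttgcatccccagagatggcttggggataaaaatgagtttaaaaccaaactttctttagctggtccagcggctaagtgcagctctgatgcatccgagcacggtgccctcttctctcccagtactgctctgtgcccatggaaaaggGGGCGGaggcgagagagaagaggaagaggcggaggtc
PTGER4: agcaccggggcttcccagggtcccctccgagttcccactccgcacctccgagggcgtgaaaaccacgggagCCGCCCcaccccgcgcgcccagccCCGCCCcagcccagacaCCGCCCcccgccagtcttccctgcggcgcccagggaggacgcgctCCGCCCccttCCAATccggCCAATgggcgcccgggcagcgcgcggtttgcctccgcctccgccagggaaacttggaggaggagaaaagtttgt
PTGES: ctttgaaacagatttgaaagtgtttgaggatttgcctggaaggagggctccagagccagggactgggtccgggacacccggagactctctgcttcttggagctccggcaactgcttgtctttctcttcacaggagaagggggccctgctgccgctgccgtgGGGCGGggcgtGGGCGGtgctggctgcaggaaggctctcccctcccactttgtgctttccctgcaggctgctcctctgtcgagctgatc
PTGS2: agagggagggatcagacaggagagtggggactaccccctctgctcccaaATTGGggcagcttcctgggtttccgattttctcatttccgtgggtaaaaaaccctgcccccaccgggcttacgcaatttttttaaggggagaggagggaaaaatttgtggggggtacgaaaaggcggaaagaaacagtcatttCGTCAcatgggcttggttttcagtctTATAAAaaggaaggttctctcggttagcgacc

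The RefSeq promoters of PTGFR and PTGER4 differed in composition. The PTGFR window held 8 CG dinucleotides and 1 GC box, which began 37 bases before the start, while the PTGER4 window held 26 CG dinucleotides, 4 GC boxes and 2 CCAAT boxes. Over 35116 promoter windows of the same length the median was 11 CG dinucleotides, 42.6% held a GC box and 32% a CCAAT box. The PTGES window held 2 GC boxes and 9 CG dinucleotides. The PTGS2 window held a TATA box beginning 32 bases and a TGACG core on the opposite strand beginning 58 bases before the start, features found in 10.7% and 21.2% of windows. Both strands were also searched for the full cyclic AMP element TGACGTCA, which contains the core and was found in 1.65% of windows. The AP-1 site TGACTCA, found in 4.2%, and the E-box CACGTG, found in 6.34%, were searched too. None of these 3 occurred in the 4 windows shown, which says nothing on whether the factors bind elsewhere. Promoter windows were matched for 9 of the 10 genes.

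PTGFR carried nearly all prostaglandin receptor reads of the Con library and almost none of the ENZR library. It stood at 83.8 CPM in Con (1710 reads) and at 0.0809 CPM in ENZR (2 reads). Con was thus far the higher of the 2 libraries, and the ENZR value lies below the 3 reads used here as the floor of detection. The plain ratio of Con over ENZR was 1036 with a counting interval of 286 to 8560, and the log2 ratio of ENZR over Con was -6.29, the 5th lowest of the 13803 measured genes. Per 1000 bases of merged exon (GENCODE 29), the level of PTGFR was 18.3 CPM in Con, above 71.1% of the measured genes with a known length, and 0.0177 CPM in ENZR, above 0.188% of them. PTGFR encodes FP, a receptor that acts mainly through Gq proteins, phospholipase C and calcium. In RNA from a whole culture, fewer cells with the transcript and less transcript in each cell cannot be told apart.

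**Figure D1:**
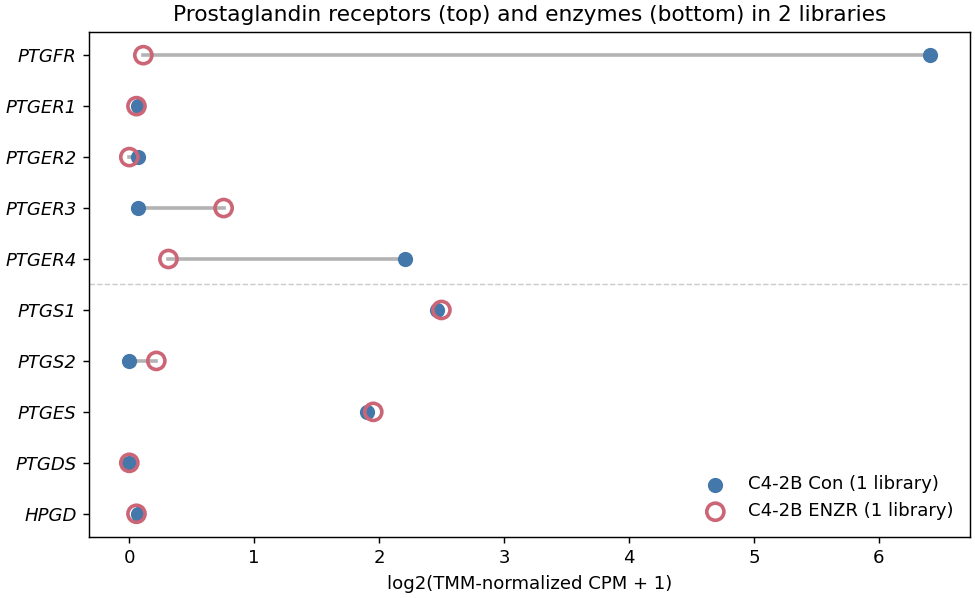
Level of each of the 10 genes in the Con library (filled blue points) and the ENZR library (open red circles), as log2 of TMM-normalized CPM plus 1, receptors above the dashed line and enzymes below it, 1 library per group. PTGFR spans from 83.8 CPM in Con to 0.0809 CPM in ENZR, PTGER4 and PTGER3 differ in opposite directions, and the enzyme pairs lie almost on top of each other.

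Of the 4 PGE2 receptors, EP4 was the main one in Con and was lower in ENZR. PTGER4, whose product EP4 raises cyclic AMP through Gs, stood at 3.63 CPM in Con (74 reads) against 0.243 CPM in ENZR (6 reads). Con was the higher library, by 14.9-fold with a counting interval of 6.55 to 42.03, and the log2 ratio of ENZR over Con was -1.90. The table also lists the transcribed pseudogene PTGER4P2-CDK2AP2P2, a readthrough that includes a copy related to PTGER4, at 3.92 CPM in Con (80 reads) against 4.53 CPM in ENZR (112 reads), a ratio of ENZR over Con of 1.16 (0.860 to 1.56). Reads that fit both rows may have been shared between them, so the PTGER4 level is uncertain by that share. In RefSeq, PTGER4 also overlaps TTC33, a neighbouring gene at 8.33 CPM and 8.90 CPM, and whether counting used strand is not stated in the labels.

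PTGER3 went the other way at a very low level. Its product EP3 lowers cyclic AMP through Gi. It had 1 read in Con (0.0490 CPM) and 17 reads in ENZR (0.687 CPM), and the ratio of ENZR over Con, 14.0, had a counting interval of 2.20 to 586. Its mean over both libraries, 0.368 CPM, kept it out of the measured genes. Per 1000 bases of exon, PTGER4 stood at 0.942 CPM and PTGER3 at 0.00525 CPM in Con, so EP4 led there by a ratio of 180 (31.3 to 7188). In ENZR the levels per 1000 bases were 0.0631 CPM for PTGER4 and 0.0736 CPM for PTGER3, a ratio of 0.857 with an interval of 0.277 to 2.28, so the order of these receptors could not be told at this depth. RefSeq places the antisense RNA ZRANB2-AS1 across PTGER3; it stood at 0.441 CPM in Con against 0.404 CPM in ENZR.

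EP1 and EP2 were at the edge of detection. PTGER1, the calcium-linked EP1, had 1 read in each library, and PTGER2, the Gs-coupled EP2, had 1 read in Con and 0 in ENZR, which allows up to 0.121 CPM there. No fold can be given for either. Summed over the 4 EP receptors, the level was 3.77 CPM in Con (77 reads) against 0.971 CPM in ENZR (24 reads), and with PTGFR added it was 87.5 CPM and 1.05 CPM.

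**Figure D2:**
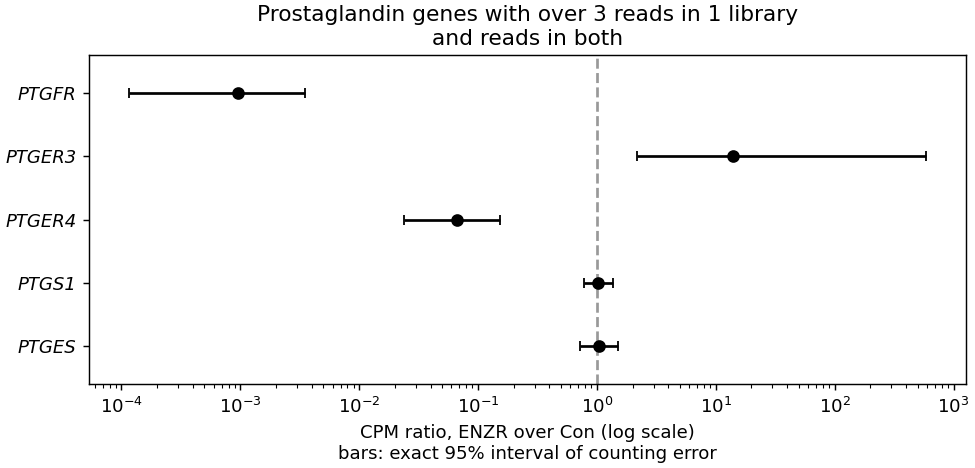
Plain CPM ratio of ENZR over Con on a log axis for the 5 genes with over 3 reads in 1 library and reads in both, with the exact 95% counting interval as bars and a dashed line at 1. PTGFR and PTGER4 lie below 1 and PTGER3 above 1, each with its whole interval, while the intervals of PTGS1 and PTGES include 1.

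The cyclooxygenase PTGS1 and the PGE synthase PTGES stood at close levels in the 2 libraries. PTGS1, the constitutive cyclooxygenase COX-1, was at 4.51 CPM in Con (92 reads) against 4.65 CPM in ENZR (115 reads), a ratio of ENZR over Con of 1.03 with a counting interval of 0.778 to 1.37. PTGES, the inducible microsomal PGE synthase, was at 2.74 CPM in Con (56 reads) against 2.87 CPM in ENZR (71 reads), a ratio of 1.05 (0.727 to 1.51). Both intervals include 1. The interval excluded 1 for 71.2% of all measured genes, but that share depends on read depth and counts genes with many more reads than PTGS1 and PTGES. It therefore does not show that these enzymes were steadier than other genes. Differences of up to about the bounds of these intervals were not detectable at this depth.

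PTGS2, the inducible COX-2, had 0 reads in Con and 4 in ENZR (0.162 CPM). Set against a floor of 3 reads in Con, the ratio of ENZR over Con was 1.10. The counting interval of its ratio began at 0.545 and so includes 1, and no direction can be given. Per 1000 bases of exon in ENZR, PTGS1 exceeded PTGS2 by a ratio of 22.8 (8.68 to 85.2), and in Con 92 reads of PTGS1 stood against 0 of PTGS2. COX-1 was the cyclooxygenase with the higher level in each library. PTGDS, the lipocalin-type PGD2 synthase, had 0 reads in both, which allows up to 0.147 CPM in Con against 0.121 CPM in ENZR. A row with 0 reads in both libraries was found for 23.8% of all genes. HPGD, which starts the breakdown of PGE2 and PGF2-alpha, had 1 read in each library. Over the 5 enzymes the level summed to 7.30 CPM in Con against 7.72 CPM in ENZR.

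Of the 10 genes, 4 were measured (PTGFR, PTGER4, PTGS1 and PTGES) and 6 were not. PTGFR and PTGER4 were at least 2-fold lower in ENZR on the log2 scale, and 0 genes were at least 2-fold higher. Over the 13803 measured genes the share at least 2-fold lower was 4.64%, and 6.69% were at least 2-fold higher. PTGFR and PTGER4 reached the measured set through their Con values alone, so they had to differ to be in it, and nothing is read from their number.

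**Figure D3:**
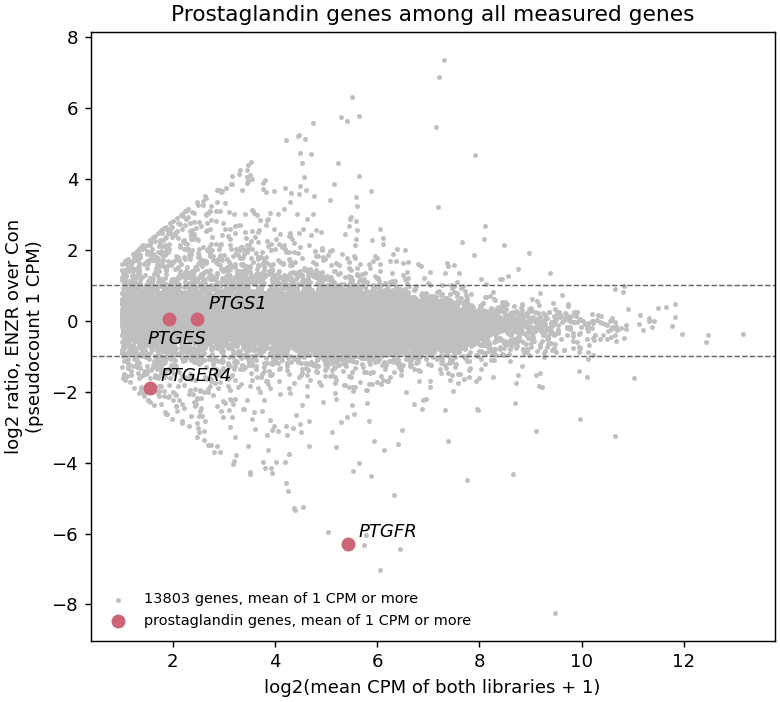
Log2 ratio of ENZR over Con (pseudocount 1 CPM) against log2 of the mean CPM plus 1 for the 13803 measured genes (grey) and the 4 measured prostaglandin genes (red), with dashed lines at 2-fold. PTGFR lies at the lower edge of the cloud at -6.29, PTGER4 at -1.90 near the low-expression end, and PTGS1 and PTGES near 0.

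Ranked by log2 ratio over these 2 libraries alone, the genes nearest to PTGFR with a mean of 10 CPM or more were the sialyltransferase ST6GALNAC1, which differed from it by 0.02 in log2 ratio, the protocadherin PCDH7 by 0.15, the surface protein TM4SF1 by 0.26 and the engulfment adaptor GULP1 by 0.74. A Y-linked gene also among the nearest 5 is not reported. ST6GALNAC1 stood at 104 CPM in Con against 0.324 CPM in ENZR, and GULP1 at 130 CPM and at 0 reads. With 1 library per group, likeness here means a similar log2 ratio after adding 1 CPM and nothing more. With almost no reads in ENZR, that log2 ratio follows mainly the Con level. The plain ratios of Con over ENZR were 1036 for PTGFR (286 to 8560) and 322 for ST6GALNAC1 (163 to 747). They were 175 for PCDH7 (118 to 274) and 165 for TM4SF1 (102 to 290). For GULP1 the ratio was at least 1073 against a floor of 3 reads in ENZR, with an interval from 872. The interval of PTGFR overlaps all of these except that of PCDH7, so the counts do not separate the other ratios from that of PTGFR.

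The genes beside PTGFR on chromosome 1 did not share its ratio as a block. Gene order was taken from RefSeq (GRCh38.p14), with the 5 nearest measured genes on each side. The 5 on the side before PTGFR (DNAJB4, FUBP1, NEXN-AS1, FAM73A and USP33) had log2 ratios from -0.08 to 0.98, and the next measured genes after it, LPHN2 and TTLL7, had 0.67 and 0.17. Beyond those, 3 consecutive measured genes were at least 2-fold lower in ENZR, beside a share of 4.64% over all measured genes. PRKACB, which encodes a catalytic subunit of the cyclic AMP-dependent protein kinase, stood at 765 CPM in Con against 37.4 CPM in ENZR (log2 ratio -4.32), SAMD13 at 8.92 CPM and 0.809 CPM (-2.45), and the nuclease gene DNASE2B at 9.06 CPM and 0.243 CPM (-3.02). SAMD13 and DNASE2B were under 1 CPM in ENZR and counted as measured through Con alone, so they had to differ to be counted. The median over the 10 neighbours was 0.20.

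Around PTGER4 on chromosome 5 most of the measured neighbours were lower in ENZR. Of 10 measured neighbours 7 were below 0, with a median log2 ratio of -0.47 and a range from -1.21 to 0.55, against a median of -0.01 over all measured genes. OXCT1, a mitochondrial enzyme of ketone body use, was the neighbour past 2-fold, at 176 CPM in Con against 75.6 CPM in ENZR. The share at least 2-fold lower over all measured genes was 4.64%. PTGER4 lay below all 10 neighbours.

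**Figure D4:**
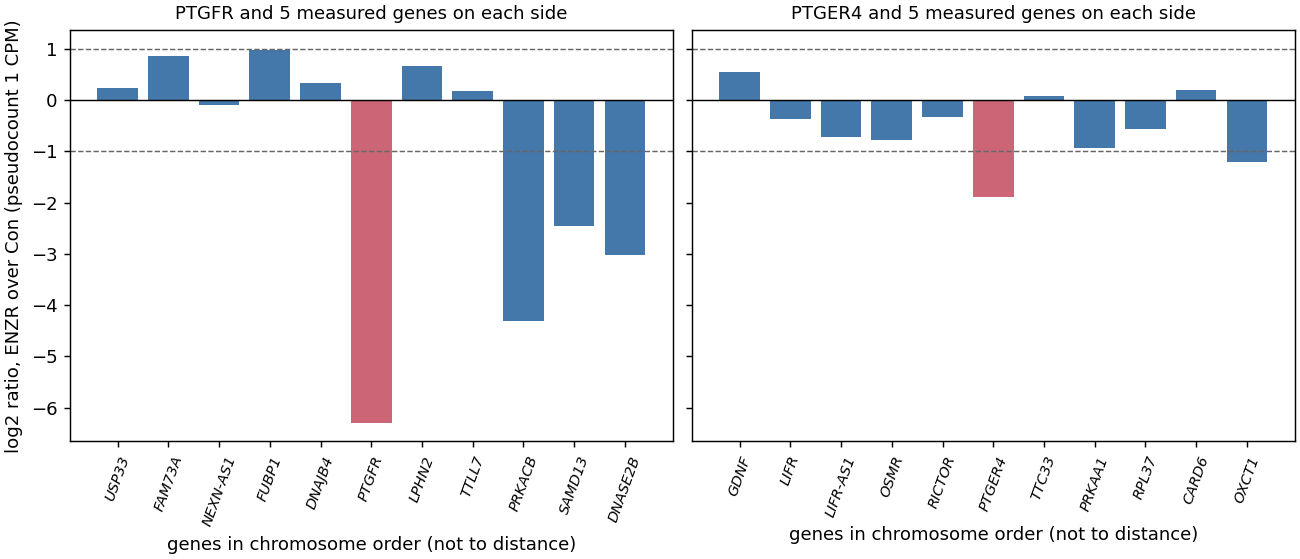
Log2 ratio of ENZR over Con (pseudocount 1 CPM) of PTGFR (left) and PTGER4 (right), in red, and of the 5 nearest measured genes on each side, in blue, in chromosome order and not to distance, with dashed lines at 2-fold. The genes next to PTGFR lie near or above 0 and 3 genes further along lie between -4.32 and -2.45, while most neighbours of PTGER4 are below 0, down to -1.21.

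The rest of the prostanoid pathway was read from 7 further lists with 119 genes, all in the table, of which 83 were measured. Of these, 11 were at least 2-fold lower in ENZR and 7 at least 2-fold higher, and the median log2 ratio was 0.02. The shares over all measured genes, 4.64% lower and 6.69% higher, are the background for these counts and for those of each list below. GNAQ and ELOVL2 among the lower genes and AKR1C3, ACSL5 and ALOX12B among the higher ones were under 1 CPM in 1 library and counted as measured through the other alone, so they had to differ to be counted.

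In the list of other prostanoid receptors, which also holds the receptor regulator PTGFRN, 0 of 2 measured genes passed 2-fold. PTGFRN, a membrane protein known as a negative regulator of FP, was at 131 CPM in Con against 182 CPM in ENZR, a ratio of 1.39 (1.33 to 1.46), so that it stood slightly higher in the library with almost no PTGFR reads. The thromboxane receptor TBXA2R was at 2.79 CPM and 2.75 CPM, with an interval of the ratio from 0.682 to 1.43. Of the PGD2 receptors, PTGDR had 0 reads in both libraries, while PTGDR2 was found with 7 in Con and 3 in ENZR. The prostacyclin receptor PTGIR had 0 reads in both.

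Of 9 measured other synthases, 8 lay within 2-fold, with a list median of -0.05 that became 0.07 when the TMM scaling was undone. PTGES3, the co-chaperone p23 that is also called cytosolic PGE synthase, was at 611 CPM in Con against 591 CPM in ENZR, and its small log2 ratio of -0.05 turned to 0.07 with that scaling undone. PTGES2, a membrane-associated PGE synthase, was at 139 CPM and 93.05 CPM, a ratio of 0.668 (0.632 to 0.706). Its head-to-head antisense RNA PTGES2-AS1 was at 7.30 CPM and 6.83 CPM, and the 2 rows could share reads. AKR1C3, which can reduce PGD2 and PGH2 to F-type prostaglandins and also makes testosterone, had 0 reads in Con and 81 in ENZR (3.28 CPM). Set against a floor of 3 reads in Con, the ratio of ENZR over Con was 22.3, and the counting interval of its ratio began at 17.7. AKR1C3 has close paralogs, so its assignment of reads is uncertain.

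In the transport and breakdown list, 2 of 7 measured genes were at least 2-fold lower and 1 at least 2-fold higher, with a median of -0.37, beside background shares of 4.64% and 6.69%. ABCC4, an efflux pump that exports PGE2 among other organic anions, was at 306 CPM in Con against 28.0 CPM in ENZR, and SLCO4A1, an organic anion transporter, at 71.1 CPM and 34.0 CPM. The log2 ratio of SLCO4A1, -1.04, was -0.93 with the TMM scaling undone and no longer past 2-fold. SLCO3A1, another organic anion transporter reported to carry prostaglandins, was at 2.50 CPM and 24.2 CPM, 9.68-fold higher in ENZR (7.26 to 13.1). The reductases PTGR1 and PTGR2, which act after HPGD, were at 39.5 CPM and 48.8 CPM and at 37.0 CPM and 37.7 CPM. Their transcripts were thus present in both libraries, where HPGD had 1 read each, and enzyme activity was not measured.

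Among 25 measured genes of arachidonate release and handling, 3 were at least 2-fold lower and 3 at least 2-fold higher, and the median was 0.07 (background 4.64% and 6.69%). Lower were ACSL1, an acyl-CoA synthetase (420 CPM in Con against 74.0 CPM in ENZR), and the fatty acid elongases ELOVL2 (5.14 CPM and 0.404 CPM) and ELOVL5 (375 CPM and 146 CPM). Higher were the phospholipase PLA2G16 (7.64 CPM and 35.5 CPM, 4.65-fold, 3.92 to 5.55) and the acyl-CoA synthetases ACSL5 (5 reads and 90 reads) and ACSL6 (2.30 CPM and 5.86 CPM). PLA2G4A, the cytosolic phospholipase A2 that classically feeds the cyclooxygenases, had 6 reads in Con and 3 in ENZR.

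In the neighbouring leukotriene and lipoxygenase branch, 1 of 9 measured genes was at least 2-fold lower and 1 at least 2-fold higher, with a median of 0.39, where the background of 4.64% and 6.69% gives under 1 gene each way. GGT1, a gamma-glutamyltransferase that converts leukotriene C4 and degrades glutathione, was at 130 CPM in Con against 9.42 CPM in ENZR, and ALOX12B, a lipoxygenase of the skin barrier, had 7 reads and 87 reads. ALOX5, the enzyme that starts leukotriene synthesis, had 3 reads and 17 reads, and its partner ALOX5AP had 0 in both. GGT1 has closely related copies, so its level is uncertain.

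The proteins that couple prostaglandin receptors to their signals included 4 of 18 measured genes at least 2-fold lower in ENZR and 0 at least 2-fold higher, with a median of -0.22 (background 4.64% and 6.69%). GNAQ and GNA11, alpha subunits of the Gq class that FP uses, were among them: GNAQ stood at 9.31 CPM in Con against 0.607 CPM in ENZR, a ratio of ENZR over Con of 0.0652 (0.0358 to 0.110), and GNA11 at 243 CPM and 107 CPM, a ratio of 0.442 (0.421 to 0.463). PLCB1, a phospholipase C that Gq activates, was at 12.1 CPM and 1.74 CPM, and GNAI1, an inhibitory subunit of the kind EP3 uses, at 150 CPM and 36.8 CPM. GNAS, the stimulatory subunit used by EP2 and EP4, was at 724 CPM and 966 CPM, a ratio of 1.33 (1.31 to 1.36). Among 13 measured cyclic AMP-responsive genes, 1 was at least 2-fold lower (RGS2, a regulator of Gq signalling, 3.48 CPM and 1.01 CPM) and 1 at least 2-fold higher (the clock gene PER1, 21.4 CPM and 43.9 CPM), and the median was 0.02.

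**Figure D5:**
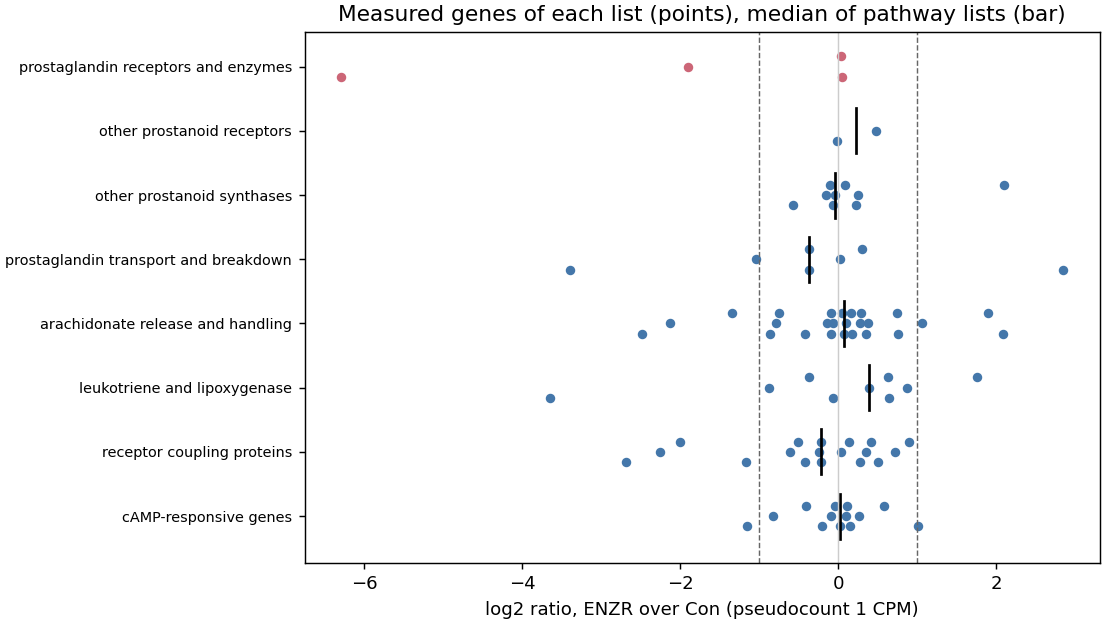
Log2 ratio of ENZR over Con (pseudocount 1 CPM) for each measured gene of the prostaglandin set (red) and of 7 pathway lists (blue), 1 point per gene, with black bars at the median of each pathway list and dashed lines at 2-fold; vertical offsets within a list only separate points. The lists scatter around 0, with medians from -0.37 to 0.39, and PTGFR lies below every pathway gene, the lowest of which is GGT1 at -3.65.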

How the data were processed

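Per the labels' protocols, total RNA of each line gave 1 single-read Illumina library. The tools in the submitters' processing notes are RSEM 1.2.15, Bowtie2 2.1.0 and edgeR, and the build is hg19, with no role given for each. Annotation, filters and strand use are not given in the sources used. The authors deposited 1 signal value per gene and library, TMM-normalized CPM, with 0 further columns of sample values. Every value (100% in each library, within 0.01 reads) was a whole multiple of 1 step, so reads were recovered as whole numbers. RSEM estimates counts, so these may be rounded estimates. The columns summed to 1030020 CPM and 949450 CPM.

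Ratios, log2 ratios (pseudocount 1 CPM) and exact 95% intervals were computed in Python 3.11.15 with scipy 1.17.1, with a floor of 3 reads per library where a library had 0. No count model was fitted, since 1 library per group leaves no spread to estimate. Exon lengths came from GENCODE 29 and were found for 92.5% of measured genes. The calculation was tested on simulated reads for 13803 genes of this comparison: 92% of 50 genes made 3-fold higher and 98% of 50 made 3-fold lower passed 2-fold, and 100% did at 6-fold in each direction. For 95.4% of unchanged genes the true ratio lay within the counting interval. The simulated reads held counting error only, with no spread between cultures. Coverage near 95% therefore follows from how they were drawn, and the shares say nothing on differences between cultures.

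The gene set, the pathway lists and the naming rule were chosen with earlier results of these data known. The rule took all 10 genes, up to 4 genes past 2-fold per pathway list by size of change, the 5 genes nearest to PTGFR in log2 ratio and neighbours past 2-fold. Pathway genes and neighbours named within 2-fold or below the 1 CPM filter, and ELOVL5 and ACSL6, were named after their values were seen. Some marker genes are not reported here. Alternatives changed the pseudocount, the filter and the scaling.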

Additional observations from a re-analysis of the deposited data

How the results depend on the processing

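The 2-fold counts and the log2 ratios of the 6 prostaglandin genes with over 3 reads in a library were recomputed under 7 other settings, the filter settings for the counts only. Of 58 values, 48 stayed within their counting interval or within 1.5 times the count, 10 moved and 0 reversed. The pseudocount moved the log2 ratios of genes with 1 library near 0: PTGFR was at -7.18 with 0.5 CPM and at -4.13 with 5 CPM, and PTGER4 at -2.47 and -0.72. With a pseudocount of 5 CPM, 1 prostaglandin gene was at least 2-fold lower and 2 pathway genes at least 2-fold higher; with a filter at a mean of 5 CPM these counts were 1 and 3, because fewer genes pass. The numbers of all genes past 2-fold with a pseudocount of 5 CPM were 447 higher and 371 lower, and the filter at 5 CPM left 577 and 456. Undoing the TMM scaling moved the median log2 ratio of all genes from -0.01 to 0.10, PTGS1 from 0.04 to 0.13 and PTGES from 0.05 to 0.14, so the size of the small ratios rests on the scaling. With each of the 3 other scalings 10 pathway genes in place of 11 were at least 2-fold lower, SLCO4A1 being the one lost (-0.98 to -0.93). No paired analysis was possible because each group has 1 library. Depth limits PTGER1, PTGER2, PTGDS and HPGD, with at most 1 read per library.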
